A study of Mus musculus with 49 samples.

Results

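The 38 genes described here drive cell division and DNA replication, and they were taken by name from the 38355 genes of a count table of mouse hippocampus RNA. All 38 were found and all 38 passed the filter on low counts at both ages. By role, 22 act in mitosis or in its preparation, 15 act at the start of S phase or in DNA synthesis, and 1, Ezh2, encodes the histone methyltransferase of Polycomb repressive complex 2 and is expressed in dividing progenitors.

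A cell enters S phase when cyclin-dependent kinases bound to cyclins D and E release E2F factors, which switch on the genes for the MCM helicase, for nucleotide supply and for the replication fork. Later in the cycle another set of genes, for cyclin B with Cdk1, the spindle motors and the checkpoint kinases, is switched on for mitosis, and repressor complexes keep both sets low in cells that have left the cycle. In the mouse hippocampus, neurons of the pyramidal layers are made before birth, the dentate gyrus goes on making neurons after birth, and glial precursors also divide in the weeks after birth.

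The series holds 49 libraries in 6 groups and examines the loss of endophilin A proteins, which help to form endocytic vesicles at synapses. At postnatal days 13 to 21 there were 7 libraries of endophilin A1 and A2 double knockouts (DKO), 7 of their littermate controls (KOWT) and 10 of wild type controls (WT-DKO). At day 0 there were 9 libraries of endophilin A1, A2 and A3 triple knockouts (TKO), 8 of their littermate controls (KOWTKO) and 8 of wild type controls (WT-TKO). Ages are those of the age field, although a separate growth note calls all 49 samples newborn. The labels give no alleles, strain or sex, and they do not say that each library is a separate animal, so p-values measure only the spread between these libraries, which may be technical.

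The targeted genes showed which gene each comparison sets apart. Sh3gl1 (endophilin A2) ranged from 0.349 to 1.15 CPM (read counts scaled to the size of the library) in DKO libraries, against 52.4 to 66.4 CPM in KOWT and 53.7 to 62.4 CPM in their wild types. It ranged from 0.455 to 1.32 CPM in TKO libraries, against 33.9 to 82.5 CPM in KOWTKO and 62.7 to 75.8 CPM in newborn wild types. Sh3gl2 (endophilin A1) was low in the littermates too, at 37.4 to 41.7 CPM in KOWT and 10.6 to 25.9 CPM in KOWTKO, against 389.6 to 468 CPM in WT-DKO and 160.0 to 225 CPM in WT-TKO. Sh3gl3 (endophilin A3) was below 0.5 CPM in every TKO and KOWTKO library. By transcript, mutants and littermates of the same age therefore differed in Sh3gl1 and were alike in having low Sh3gl2.

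Some libraries stood apart. Sh3gl3 was low in DKO replicates 5 and 6 and in KOWT replicates 4, 5 and 6, with a minimum of 6.46 CPM in DKO and 12.6 CPM in KOWT, although neither group is labelled as lacking endophilin A3. KOWTKO replicate 3 held the intermediate Sh3gl1 level of 33.9 CPM. WT-TKO replicate 8 had a summed level of 16 myelin genes of 1028 CPM, against at most 127 CPM in the other newborn libraries. Transthyretin, a choroid plexus transcript, exceeded 100 CPM in DKO replicates 1, 2, 5 and 7, KOWT replicates 3, 5 and 7 and WT-DKO replicates 1 and 9 among older libraries, and in TKO replicates 3 and 8 and WT-TKO replicates 5, 7 and 8 among newborn ones, with the newborn maximum of 1047 CPM in WT-TKO replicate 7. Depth ran from 13116766 to 56977730 reads on genes per library, and the cell cycle genes took 0.0153 to 0.0226% of those reads in older libraries and 0.085 to 0.123% in newborn ones.

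Summed over the 38 genes, the level was 166 to 197 CPM for DKO (median 184), 157 to 190.2 CPM for KOWT (median 174) and 193 to 228 CPM for WT-DKO (median 206). At birth it was 853 to 1229 CPM for TKO (median 967), 862 to 1216 CPM for KOWTKO (median 974) and 825 to 1076 CPM for WT-TKO (median 932). No older library reached any newborn one. In bulk tissue, fewer dividing cells and less RNA per dividing cell cannot be told apart.

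Between birth and days 13 to 21, 36 of the 38 genes fell and 1, Ccne1, rose in wild types (WT-DKO against WT-TKO). The called share of 97.4% compares with 81.1% of all 16805 genes tested, of which 41.5% were lower and 39.5% higher. The median log2 fold change of the set was -2.63, against -0.03 over all genes. For 36 genes every older wild type library lay below every newborn one, for Ccne1 every older library lay above, and only Ccne2 overlapped. Overlap was not counted over all genes in any comparison, so such separation is not shown to be particular to this set. A call here means an adjusted p under 0.05 by edgeR's quasi-likelihood test with Benjamini-Hochberg adjustment over all genes tested. The older wild types belong to the DKO set and the newborn ones to the TKO set, so age, set and any batch cannot be told apart.

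The 7 mitotic kinases and cyclins had a median log2 fold change of -3.11. Among them Cdk1 had the largest fall of the 38 genes. Cdk1, the kinase that drives entry into mitosis, had 1.2, 1.49 and 1.88 CPM (lowest, median, highest) in WT-DKO, against 17.3, 19.9 and 25.8 CPM in WT-TKO. Its log2 fold change was -3.77 ± 0.15 (SE, adjusted p = 1.95e-28), a 13.6-fold lower level in the older wild types. Ccnb1, its cyclin partner, had 0.245, 0.485 and 0.806 CPM in WT-DKO, against 4.96, 5.70 and 8.32 CPM in WT-TKO, with a log2 fold change of -3.54 ± 0.19 (adjusted p = 4.12e-23). The older and newborn libraries were far apart for both genes, and Ccnb1 was the lowest of the 38 genes per length in older wild types, at 0.120 CPM per kb. Aurka, a spindle pole kinase, kept the most among the mitosis genes, at 28.6% of its newborn mean.

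Genes for mitotic chromosomes (median -3.27) and for exit from mitosis (median -3.39) fell somewhat further at the median. Top2a, the topoisomerase that untangles sister chromatids, had 4.97, 6.09 and 8.80 CPM in WT-DKO, against 62.4, 77.6 and 92.9 CPM in WT-TKO (log2 fold change -3.59 ± 0.15, adjusted p = 2.19e-26). Mki67, which coats mitotic chromosomes and is the usual marker of proliferating cells, had 5.05, 6.70 and 8.33 CPM in WT-DKO, against 41.5, 52.2 and 62.3 CPM in WT-TKO (-2.94 ± 0.15, adjusted p = 1.35e-23). Neither gene's older range came near its newborn range. The median log2 fold change was -3.39 for Cdc20 and Ube2c, which start and feed the anaphase-promoting complex, -3.01 for 6 kinetochore and checkpoint genes and -2.69 for 5 spindle and cytokinesis genes.

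The replication genes had smaller falls at the median. Across the 8 origin licensing and helicase genes the median log2 fold change was -2.33, and across the 4 genes of the replication fork and nucleotide supply it was -1.83, against -3.08 over the 22 mitosis genes. Mcm5, a helicase subunit, had 5.24, 5.97 and 6.93 CPM in WT-DKO, against 27.7, 31.0 and 36.0 CPM in WT-TKO (-2.39 ± 0.10, adjusted p = 4.76e-28). Rrm2, the small subunit of ribonucleotide reductase, had 2.95, 4.11 and 5.80 CPM in WT-DKO, against 24.3, 33.6 and 39.7 CPM in WT-TKO (-2.93 ± 0.11, adjusted p = 6.55e-30). Both genes were well separated between the ages, and Rrm2 fell as far as Mki67 did. Mcm4, with a log2 fold change of -1.24 ± 0.07 (adjusted p = 6.83e-23), fell least among the helicase genes. Pcna, the sliding clamp that also serves in DNA repair, had 14, 19.2 and 20.9 CPM in WT-DKO, against 28.8, 38 and 45.2 CPM in WT-TKO (-1.01 ± 0.10, adjusted p = 1.06e-13).

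The G1/S control genes fell least or rose. E2f1, a transcription factor of S phase entry, had 8.93, 10.1 and 12.1 CPM in WT-DKO, against 15.7, 16.5 and 20.3 CPM in WT-TKO, and its fall of -0.73 ± 0.08 on the log2 scale (adjusted p = 1.11e-11) was the smallest of the 36. Ccne1, which encodes cyclin E1, had 13.9, 15.1 and 16.7 CPM in WT-DKO, against 5.28, 6.62 and 8.40 CPM in WT-TKO (1.2 ± 0.09, adjusted p = 1.66e-17). Every older wild type library was thus above every newborn one for Ccne1, while its sister Ccne2 overlapped, with 6.91, 8.83 and 9.68 CPM in WT-DKO, against 6.48, 7.69 and 8.67 CPM in WT-TKO (0.15 ± 0.10, adjusted p = 0.168). Of Ccne2's exon bases, 17.4% also belong to Ints8 on the other strand, and reads from the unstranded libraries cannot be divided between the genes.

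Ezh2 fell with the set. It had 8.66, 11.1 and 13 CPM in WT-DKO, against 63.6, 71.6 and 84.3 CPM in WT-TKO (-2.73 ± 0.12, adjusted p = 1.01e-26). Expressed per kb of exon, the newborn wild type order began with Pcna at 15.6 CPM per kb, then Mcm7 at 13.8, Mcm6 at 12.8, Rrm2 at 11.7 and Ezh2 at 10.9. In older wild types Pcna was still first at 7.70 CPM per kb, but Ccne1 stood in place 2 at 5.69, against place 26 in newborns, followed by Mcm4 at 3.78, E2f1 at 3.29 and Mcm6 at 3.26. The older mean was 7.35 to 28.6% of the newborn mean over the mitosis genes (median 11.9%) and 13.2 to 228% over the G1/S and replication genes (median 25.5%).

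**Figure D1:**
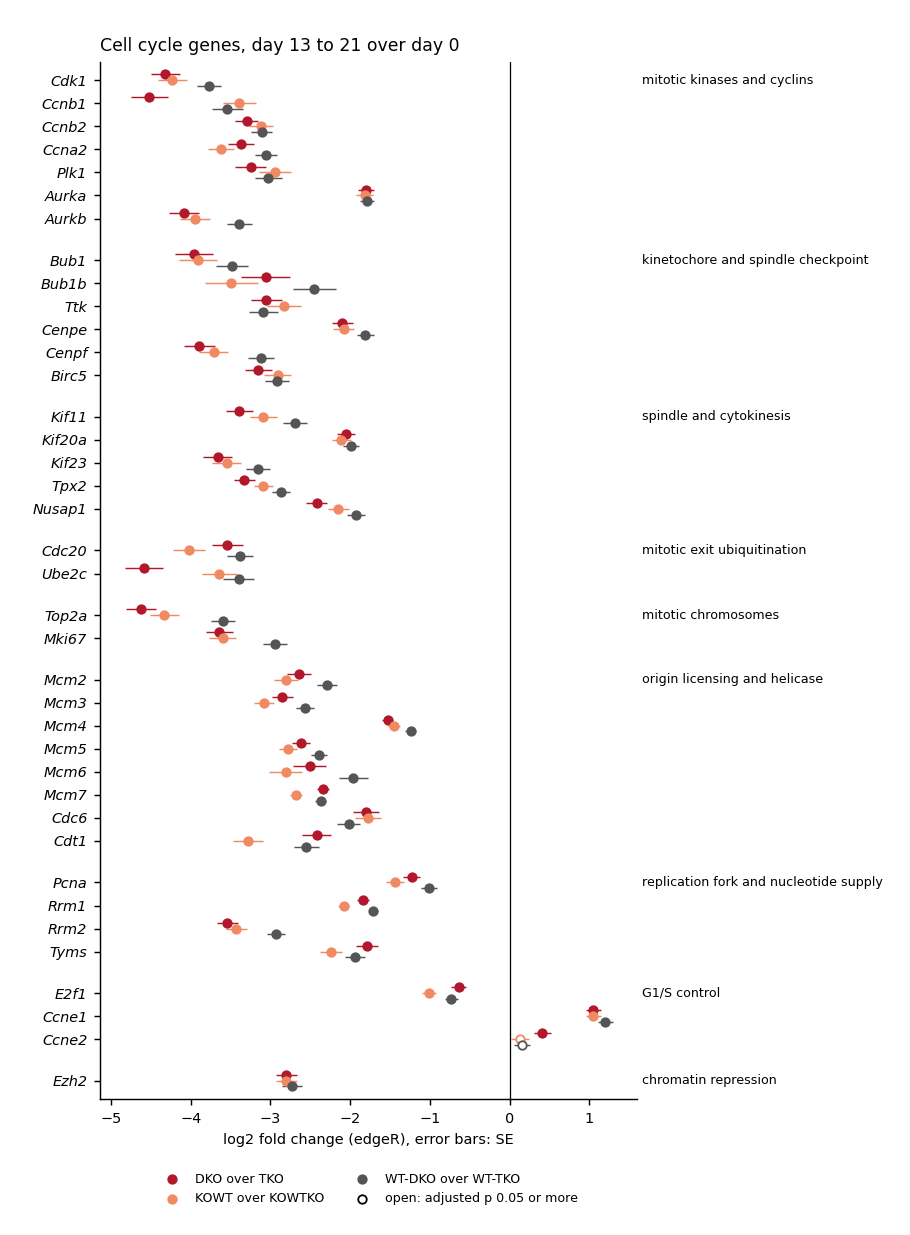
Log2 fold change (x axis, points, with SE as bars) of each of the 38 genes at days 13 to 21 over day 0, for DKO over TKO, KOWT over KOWTKO and WT-DKO over WT-TKO, with genes grouped by role down the page. All but Ccne1 and Ccne2 lie left of 0 in the 3 comparisons, and open points did not pass an adjusted p of 0.05.

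All genes but Ccne1 and Ccne2 fell in the other pairs of groups too. In KOWT against KOWTKO, 36 genes fell and Ccne1 rose (97.4% called, against 81.2% of all genes, 40.3% lower and 40.9% higher), with a median log2 fold change of -2.92. In DKO against TKO, 36 fell and both Ccne1 and Ccne2 rose (all 38, against 80.2% of all genes, 40% lower and 40.2% higher), with a median of -2.95. Top2a fell by 4.33 on the log2 scale in KOWT against KOWTKO and by 4.62 in DKO against TKO, and Ccne1 was higher by 1.05 in each. DKO and TKO also differ in endophilin A3. So do KOWT and KOWTKO by transcript, with a median Sh3gl3 level of 63.0 CPM in KOWT and 0.225 CPM in KOWTKO. Neither pair therefore isolates age.

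Promoter sequence was examined because the mitosis and replication genes moved by different amounts. RefSeq windows of GRCm38.p6, from 250 bases before to 50 after the start RefSeq gives for each gene, were matched for 32 of the 38 genes. They were searched on both strands for the cell cycle homology word TTTGAA, the CCAAT box CCAAT, and the E2F words TTTCCCGC, TTTGGCGC and TTTCGCGC, which can overlap one another. TTTGAA was present in 13 of 18 mitosis genes (72.2%) and 1 of 13 G1/S and replication genes (7.69%), against 20.2% of 27025 genes with a window. An E2F word was present in 6 of 13 G1/S and replication genes (46.2%) and 1 of 18 mitosis genes (5.56%), against 2.12% of all genes. CCAAT was present in 25 of the 32 genes (78.1%), against 41.1% of all genes.

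The windows below are shown for the genes that fell most (Cdk1, Top2a), for helicase genes that fell less (Mcm3, Mcm6) and for Ccne1, which rose. All 5 lie on the minus strand, at chr10:69352863-69353162, chr11:99024140-99024439, chr1:20820263-20820562, chr1:128359656-128359955 and chr7:38107441-38107740 in that order, and each is printed 5′ to 3′ along its gene. Capitals mark the words searched for, on either strand.
Cdk1: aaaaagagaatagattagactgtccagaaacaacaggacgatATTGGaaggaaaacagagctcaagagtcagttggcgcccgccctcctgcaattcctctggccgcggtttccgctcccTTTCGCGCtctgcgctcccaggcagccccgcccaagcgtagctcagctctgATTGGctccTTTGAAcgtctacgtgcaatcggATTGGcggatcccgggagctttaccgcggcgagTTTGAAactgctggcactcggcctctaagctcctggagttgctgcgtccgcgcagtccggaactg
Top2a: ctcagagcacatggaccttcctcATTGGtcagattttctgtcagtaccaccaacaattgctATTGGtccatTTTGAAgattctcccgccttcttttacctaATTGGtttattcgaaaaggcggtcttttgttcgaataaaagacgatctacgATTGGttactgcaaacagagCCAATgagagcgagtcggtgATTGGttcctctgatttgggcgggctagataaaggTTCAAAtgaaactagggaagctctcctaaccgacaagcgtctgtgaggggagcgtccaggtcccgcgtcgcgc
Mcm3: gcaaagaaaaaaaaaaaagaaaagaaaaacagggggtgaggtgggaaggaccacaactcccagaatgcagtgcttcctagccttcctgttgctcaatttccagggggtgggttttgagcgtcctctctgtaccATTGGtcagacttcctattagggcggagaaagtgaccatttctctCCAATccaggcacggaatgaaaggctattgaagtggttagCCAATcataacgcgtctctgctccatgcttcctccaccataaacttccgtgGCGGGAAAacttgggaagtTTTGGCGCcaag
Mcm6: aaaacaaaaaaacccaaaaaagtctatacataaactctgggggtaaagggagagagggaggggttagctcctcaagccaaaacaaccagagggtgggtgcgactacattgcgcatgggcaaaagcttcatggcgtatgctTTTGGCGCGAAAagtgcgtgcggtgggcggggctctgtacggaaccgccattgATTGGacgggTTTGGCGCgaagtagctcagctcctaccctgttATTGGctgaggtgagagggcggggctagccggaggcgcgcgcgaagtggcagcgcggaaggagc
Ccne1: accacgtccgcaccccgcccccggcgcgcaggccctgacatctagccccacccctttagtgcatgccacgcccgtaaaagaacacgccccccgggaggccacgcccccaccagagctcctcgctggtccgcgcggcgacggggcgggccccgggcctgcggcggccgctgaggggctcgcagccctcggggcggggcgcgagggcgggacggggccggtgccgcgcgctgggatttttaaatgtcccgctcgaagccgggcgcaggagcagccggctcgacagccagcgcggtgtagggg

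Cdk1 and Top2a each held TTTGAA at 2 places, and Cdk1 also held an E2F word. Mcm3 held E2F words at 2 places and Mcm6 at 3, without TTTGAA. The window of Ccne1 held none of these words. Among genes not shown, Plk1 (log2 fold change -3.03) held TTTGAA, but Ccnb1 (-3.54) held neither TTTGAA nor an E2F word. Rrm2 (-2.93), Pcna and E2f1 also held neither of these. Whether the words go with the size of the fall was not tested. RefSeq's start lay inside the gene as GENCODE gives it for E2f1, Ezh2, Cdc6 and Mcm7, by at least 311 bases, and the windows of these 4 genes lie wholly within the gene and miss the region before its first annotated base. These matches describe letters in the windows and do not show that a factor binds.

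**Figure D2:**
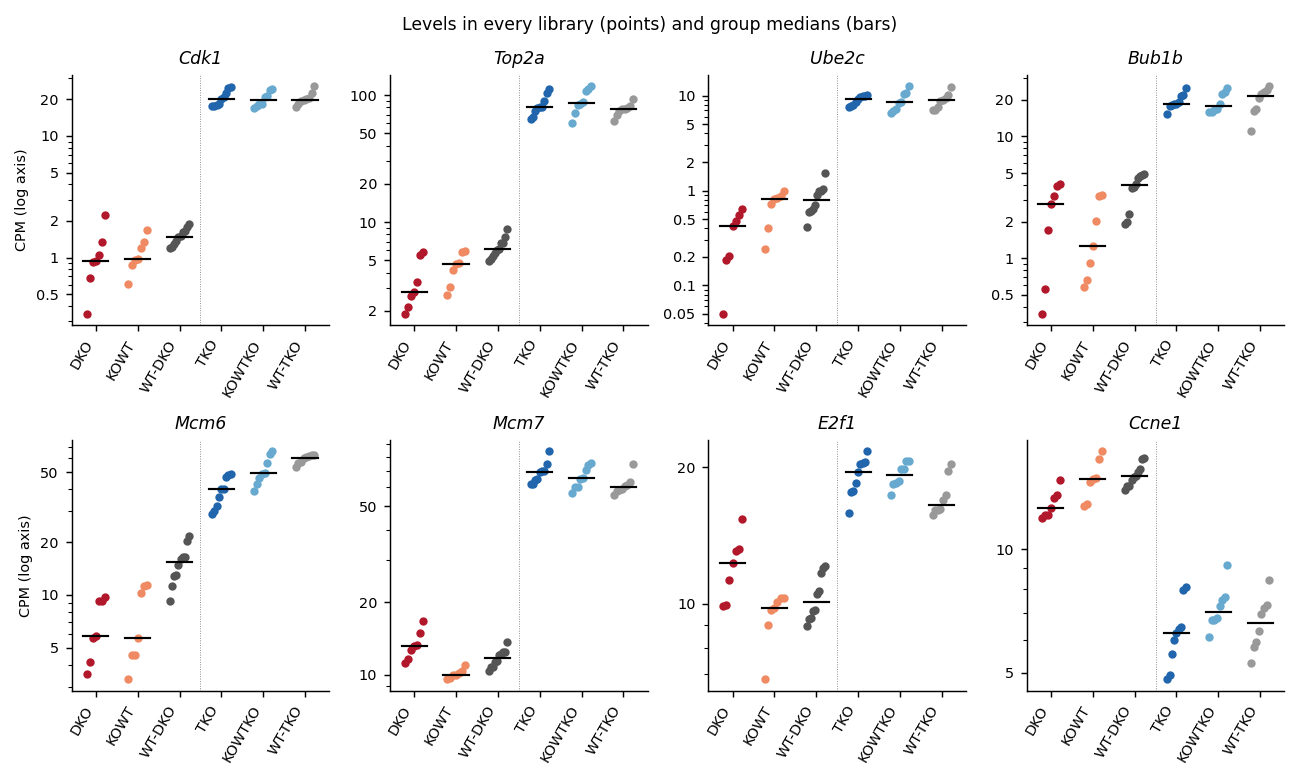
Level (CPM, log axis) of 8 genes in every library, with 1 point per library and bars at group medians, for DKO, KOWT, WT-DKO, TKO, KOWTKO and WT-TKO from left to right. Cdk1, Top2a and Ube2c are far lower in the 3 older groups, Ccne1 is higher in them, and Mcm6 is low in DKO and KOWT within the older age.

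Among older libraries, DKO against KOWT gave 4 higher genes and 1 lower gene. That is 13.2% of the 38, below the 20.8% of all 16114 genes tested (10.2% higher and 10.6% lower), and the median log2 fold change of the set was 0.01, against 0.00 over all genes. Without the libraries over 100 CPM of transthyretin, which left 3 DKO and 4 KOWT libraries, the balance was 2 higher (Mcm7 and Bub1b) and 4 lower (Ccnb1, Kif11, Top2a and Mcm2), 15.8% of the set against 13.6% of all genes. In the reported fit all 4 higher genes act at the G1/S step or in replication. Mcm7, a helicase subunit, had 11.2, 13.2 and 16.8 CPM in DKO, against 9.60, 10 and 11 CPM in KOWT (0.41 ± 0.07, adjusted p = 4.01e-04). All 7 DKO libraries were above all 7 KOWT libraries for Mcm7, the only gene of the 38 whose groups did not overlap here. The share of all genes without overlap was not counted. Of its exon bases, 7.25% are shared with Ap4m1 on the other strand.

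E2f1 had 9.90, 12.3 and 15.4 CPM in DKO, against 6.82, 9.79 and 10.3 CPM in KOWT (0.38 ± 0.10, adjusted p = 0.0112), and 5 of 7 DKO libraries were above every KOWT library. Rrm1, the large subunit of ribonucleotide reductase, had 19.7, 21.1 and 23.6 CPM in DKO, against 17.9, 19.3 and 20.3 CPM in KOWT (0.18 ± 0.06, adjusted p = 0.0198), with 6 DKO libraries above every KOWT library. Cdt1, a licensing factor, had 0.749, 1.10 and 1.73 CPM in DKO, against 0.462, 0.770 and 1.27 CPM in KOWT (0.58 ± 0.20, adjusted p = 0.0384). The groups overlapped for these 3 genes. Genes called only without the libraries over 100 CPM of transthyretin are named after their values were seen: Bub1b was at 1.65 ± 0.37 (adjusted p = 0.00823), Kif11 at -0.78 ± 0.17 (adjusted p = 0.00618), Top2a at -0.82 ± 0.25 (adjusted p = 0.0368) and Mcm2 at -0.52 ± 0.14 (adjusted p = 0.0241). Without those libraries the adjusted p was 0.157 for E2f1, 0.166 for Rrm1 and 0.0603 for Cdt1. Without the Sh3gl3-low libraries it was 0.104 for E2f1, 0.112 for Rrm1 and 0.138 for Cdt1. Single libraries whose omission ended the Cdt1 call were DKO replicates 1, 5 and 6 and KOWT replicates 1, 2, 4, 6 and 7. Mcm7 remained called in all 32 alternatives.

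Ccnb1 was the lower gene, with 0.172, 0.25 and 0.558 CPM in DKO, against 0.181, 0.623 and 0.924 CPM in KOWT (-0.98 ± 0.34, adjusted p = 0.0387). These levels rest on 3 to 12 reads in DKO and 3 to 24 in KOWT, and 4 of 7 KOWT libraries were above every DKO library. The call was lost on leaving out any of DKO replicates 1, 3, 4, 6 and 7 or KOWT replicates 1, 2, 6 and 7. Ube2c, the ubiquitin-conjugating enzyme of the anaphase-promoting complex, did not pass (-0.94 ± 0.35, adjusted p = 0.0588). It had 0.0499, 0.426 and 0.642 CPM in DKO, against 0.242, 0.822 and 1.0 CPM in KOWT, with 22.8% of its exon bases shared with Tnnc2.

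Beside these values, 7 of 16 myelin markers were lower in DKO than in KOWT. Of 14 intermediate progenitor and immature neuron markers, 5 were higher and 1 lower. The myelin sum was 4479 to 14656 CPM in DKO, against 11131 to 21479.8 CPM in KOWT. The immature neuron sum was 1087 to 1869 CPM in DKO, against 1082 to 1479 CPM in KOWT, with Calb2 (0.69 ± 0.12) and Dcx (0.60 ± 0.14) leading. With the myelin mean as a covariate, Mcm7 and Rrm1 were still called, and E2f1 (0.22, adjusted p = 0.184), Cdt1 (0.46, adjusted p = 0.181) and Ccnb1 (-0.73, adjusted p = 0.205) were not. What part the markers' difference had in these results was otherwise not tested.

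Against wild types of the same age, DKO had 10 lower genes and 1 higher gene, which is 28.9% of the set against 26.1% of all genes. The lower share was 26.3%, against 13% of all genes (13.1% were higher), and the median log2 fold change was -0.24, against 0.00 over all genes. Of the 10, Kif11, Tpx2, Nusap1, Ube2c and Top2a act in mitosis and Mcm3, Mcm4, Mcm6, Rrm2 and Ccne1 at the G1/S step or in replication. All 38 genes overlapped between the groups.

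Mcm6, a helicase subunit, had 3.54, 5.82 and 9.72 CPM in DKO, against 9.27, 15.5 and 21.6 CPM in WT-DKO (-1.15 ± 0.26, adjusted p = 0.00209), and 6 of 7 DKO libraries were below every wild type. The DKO libraries were uneven, with replicates 1, 2, 3 and 7 at 3.54 to 5.82 CPM and replicates 4, 5 and 6 at 9.17 to 9.72 CPM. Without the libraries over 100 CPM of transthyretin the value was -0.88 (adjusted p = 0.0674), and in the other 31 alternatives the gene was called. Top2a had 1.89, 2.82 and 5.81 CPM in DKO, against 4.97, 6.09 and 8.80 CPM in WT-DKO (-0.87 ± 0.20, adjusted p = 0.00254), with 5 DKO libraries below every wild type. Ube2c had 0.0499, 0.426 and 0.642 CPM in DKO, from 1 to 16 reads, against 0.417, 0.797 and 1.53 CPM in WT-DKO (-1.17 ± 0.32, adjusted p = 0.00888). Top2a and Ube2c were called in all 32 alternatives.

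Mcm4 had 9.17, 11.2 and 13.5 CPM in DKO, against 11.8, 13.5 and 14.5 CPM in WT-DKO (-0.25 ± 0.07, adjusted p = 0.0129), with 4 DKO libraries below every wild type. Ccne1 had 11.9, 12.6 and 14.7 CPM in DKO, against 13.9, 15.1 and 16.7 CPM in WT-DKO (-0.22 ± 0.07, adjusted p = 0.0143), with 6 DKO libraries below every wild type. Tpx2, a spindle assembly factor, and Rrm2 fell by 0.37 and 0.46 on the log2 scale and were called in all alternatives. Kif11, a spindle motor, and Mcm3 fell by 0.50 and 0.43, and both calls were lost without DKO replicate 4. Nusap1, a spindle microtubule protein (-0.32 ± 0.12, adjusted p = 0.0485), lost its call on leaving out any of DKO replicates 1, 3, 4, 5 and 6, any of KOWT replicates 1, 2, 3, 5 and 6, or any WT-DKO library but replicate 7, with values of -0.33 to -0.24. Without the Sh3gl3-low libraries Mcm3 (-0.37, adjusted p = 0.0880) and Mcm4 (-0.15, adjusted p = 0.111) did not pass, and without those over 100 CPM of transthyretin Ccne1 did not (-0.11, adjusted p = 0.368).

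Mcm7 was the higher gene against wild types too, by 0.20 ± 0.07 (adjusted p = 0.0290), though only 2 of 7 DKO libraries were above every wild type. That call was lost without DKO replicate 1 or 3 or WT-DKO replicate 1 or 4, and without the Sh3gl3-low libraries (0.22, adjusted p = 0.0649). Cdk1 did not pass (-0.51 ± 0.24, adjusted p = 0.121): it had 0.344, 0.931 and 2.23 CPM in DKO, against 1.2, 1.49 and 1.88 CPM in WT-DKO. For Cdk1, 5 DKO libraries were below every wild type and 1 was above all of them. Without the libraries over 100 CPM of transthyretin, which left 3 DKO libraries, Cdk1 passed at -1.16 ± 0.31 (adjusted p = 0.0137). Mki67, with 3.54, 4.79 and 8.10 CPM in DKO, against 5.05, 6.70 and 8.33 CPM in WT-DKO, did not pass either, nor did Mcm5, Pcna and Ezh2.

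Beside these values, 6 of 14 neural progenitor and radial glia markers were lower and 2 higher in DKO than in WT-DKO, with Nes at -0.69 ± 0.13 among the lower ones. Over the 14 markers the median log2 fold change was -0.24, with values from -0.75 to 0.36. The progenitor sum was 277 to 340.4 CPM in DKO, against 311 to 387 CPM in WT-DKO. All 5 red cell markers tested, of 7, were lower, with a sum of 9.79 to 74.1 CPM in DKO, against 73.5 to 185 CPM in WT-DKO, and 6 of 12 microglia markers were lower. Their part in the gene changes was not tested, and no marker of these lists was at 0 in all libraries of a group.

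KOWT against WT-DKO gave 1 lower gene, Mcm6, which is 2.63% of the set against 4.41% of all genes, or 2.09% for lower genes alone. Mcm6 had 3.30, 5.64 and 11.4 CPM in KOWT, against 9.27, 15.5 and 21.6 CPM in WT-DKO (-1.05 ± 0.26, adjusted p = 0.0175). The groups overlapped, with 4 of 7 KOWT libraries below every wild type and 8 of 10 wild types above every KOWT library. The KOWT libraries were uneven too, with replicates 1, 2, 3 and 4 at 3.30 to 5.64 CPM and replicates 5, 6 and 7 at 10.3 to 11.4 CPM. With replicate number as a block the value was -0.99 (adjusted p = 0.0901). The median log2 fold change of the set was -0.21, and 11 genes had an unadjusted p under 0.05. Among those that did not pass, Rrm1 had a log2 fold change of -0.17 ± 0.05 (adjusted p = 0.0548), Mcm3 -0.41 ± 0.13 (0.0831) and Mcm7 -0.21 ± 0.07 (0.0875). Beside these, 12 of 14 progenitor markers had negative values in KOWT against WT-DKO (median -0.32, 10 of the 14 with an unadjusted p under 0.05), but the 1 that passed, Prom1, was higher. Of 5 red cell markers 3 were lower in KOWT. Their part in the gene values was not tested.

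**Figure D3:**
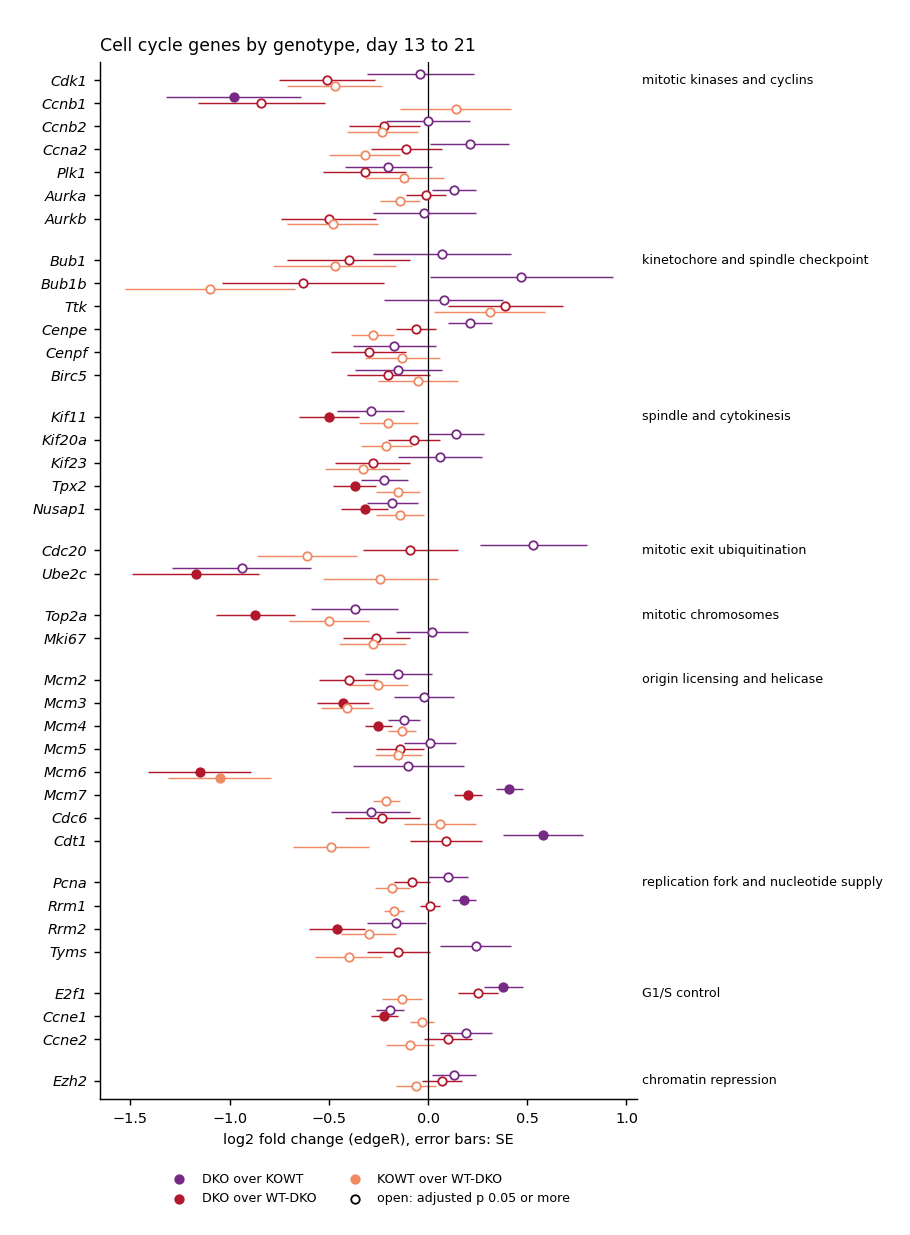
Log2 fold change (x axis, points, with SE as bars) of each of the 38 genes between genotypes at days 13 to 21, for DKO over KOWT, DKO over WT-DKO and KOWT over WT-DKO. Filled points passed an adjusted p of 0.05: Mcm6 did so in both comparisons with wild types, and Mcm7 in both comparisons of DKO.

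At birth, TKO against KOWTKO gave 1 lower gene, again Mcm6, which is 2.63% of the set against 5.09% of all 15715 genes tested, or 2.68% for lower genes alone. Mcm6 had 29.0, 40.1 and 49.1 CPM in TKO, against 39.2, 49.3 and 66.0 CPM in KOWTKO (-0.39 ± 0.11, adjusted p = 0.0309). The groups overlapped, with 4 of 9 TKO libraries below every KOWTKO library. The call was lost on leaving out any of TKO replicates 5, 6, 7 and 8 or KOWTKO replicates 4 and 6, and also with no filter on low counts (adjusted p = 0.0540) or with only these groups in the fit (0.0648). Ttk, a spindle checkpoint kinase, did not pass (0.29 ± 0.09, adjusted p = 0.0531). Beside these, 4 of 14 progenitor markers were lower, with Fabp7 at -0.53 ± 0.06, and their sum was 1476 to 2181 CPM in TKO, against 1931 to 2404 CPM in KOWTKO; their part was not tested.

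TKO against WT-TKO gave 3 higher and 3 lower genes, which is 15.8% of the set against 22.9% of all genes (10.8% higher and 12% lower). The higher genes, Ttk, Cenpf and Mki67, act in mitosis, and the lower ones, Mcm6, Cdc6 and Tyms, in replication. Mcm6 had 29.0, 40.1 and 49.1 CPM in TKO, against 53.7, 60.7 and 63.2 CPM in WT-TKO (-0.61 ± 0.11, adjusted p = 3.32e-04), and all 9 TKO libraries were below all 8 wild types. Ttk had 7.62, 8.21 and 10.1 CPM in TKO, against 6.18, 6.73 and 7.31 CPM in WT-TKO (0.34 ± 0.09, adjusted p = 0.00756), with all 9 above. Mcm6 and Ttk were the only genes of the 38 whose groups did not overlap, and the share over all genes was not counted.

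Cdc6, which loads the helicase at origins, had 1.95, 2.39 and 3.06 CPM in TKO, against 2.67, 3.30 and 4.03 CPM in WT-TKO (-0.46 ± 0.12, adjusted p = 0.00833), and 7 of 9 TKO libraries were below every wild type. Tyms, thymidylate synthase, had 6.78, 8.20 and 10 CPM in TKO, against 9.13, 10.3 and 11.9 CPM in WT-TKO (-0.32 ± 0.09, adjusted p = 0.0109), with 6 below. Cenpf, a kinetochore protein, had 28.0, 39.8 and 54.6 CPM in TKO, against 23.6, 30.8 and 35.3 CPM in WT-TKO (0.45 ± 0.14, adjusted p = 0.0179), with 5 above. Mcm6, Ttk, Cdc6 and Tyms were called in all 32 alternatives. Without the libraries over 100 CPM of transthyretin Cenpf (0.37, adjusted p = 0.122) and Mki67 (0.36, adjusted p = 0.122) did not pass. Mki67 had 48.3, 60.6 and 100.4 CPM in TKO, against 41.5, 52.2 and 62.3 CPM in WT-TKO (0.42 ± 0.14, adjusted p = 0.0258), and this call was lost without TKO replicate 2 or 3 or WT-TKO replicate 1 or 6.

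Beside these values, 4 of 14 progenitor markers were lower and 3 higher in TKO than in WT-TKO, with Fabp7 at -0.60 ± 0.06 and Hes5 at -0.69 ± 0.12 among the lower ones. Over the 14 markers the median log2 fold change was -0.08, with values from -0.69 to 0.42. In addition 9 of 10 meningeal markers and 7 of 12 microglia markers were lower. The meningeal sum was 86.0 to 197 CPM in TKO, against 127 to 503 CPM in WT-TKO, and the microglia sum was 109 to 145 CPM in TKO, against 123 to 206 CPM in WT-TKO. Their part was not tested.

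KOWTKO against WT-TKO gave 3 higher genes, Cenpf, Mcm5 and Mki67, which is 7.89% of the set against 20.9% of all genes, or 10.5% for higher genes alone. Cenpf had 24.3, 41.7 and 49.9 CPM in KOWTKO, against 23.6, 30.8 and 35.3 CPM in WT-TKO (0.46 ± 0.14, adjusted p = 0.0196), with 7 of 8 KOWTKO libraries above every wild type. Mcm5 had 32.7, 37.5 and 43.5 CPM in KOWTKO, against 27.7, 31.0 and 36.0 CPM in WT-TKO (0.23 ± 0.08, adjusted p = 0.0380), with 5 above. Mki67 had 49.3, 62.2 and 85.3 CPM in KOWTKO, against 41.5, 52.2 and 62.3 CPM in WT-TKO (0.39 ± 0.14, adjusted p = 0.0480), with 4 above. The groups overlapped for all 3 genes. The Mcm5 call was lost on leaving out any of KOWTKO replicates 1, 3, 4 and 6 or WT-TKO replicates 1, 2, 3, 4 and 6, with values of 0.20 to 0.24. The Mki67 call was lost without any of KOWTKO replicates 1, 3, 4, 5 and 6, WT-TKO replicates 1, 3, 4, 5, 6 and 8 or TKO replicates 1, 6, 8 and 9, which share the estimate of the spread, with values of 0.33 to 0.41. Both calls were thus lost without KOWTKO replicate 3, the library of intermediate Sh3gl1 level, while Cenpf stayed called there (0.45, adjusted p = 0.0312). Without the libraries over 100 CPM of transthyretin, which left 8 KOWTKO and 5 WT-TKO libraries, 7 genes were higher and none lower (18.4% of the set, against 26.8% of all genes), among them Cenpf and Mcm5, and Mki67 did not pass (0.38, adjusted p = 0.0795).

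Mcm6 had 39.2, 49.3 and 66.0 CPM in KOWTKO, against 53.7, 60.7 and 63.2 CPM in WT-TKO, and did not pass in that comparison. Its medians at birth were thus 40.1 CPM for TKO, 49.3 CPM for KOWTKO and 60.7 CPM for WT-TKO. Beside the KOWTKO values, 5 of 14 intermediate progenitor and immature neuron markers were higher, with Dcx at 0.35 ± 0.07 and Sox4 at 0.49 ± 0.11, while 7 of 9 choroid plexus and 9 of 12 microglia markers were lower; their part was not tested.

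**Figure D4:**
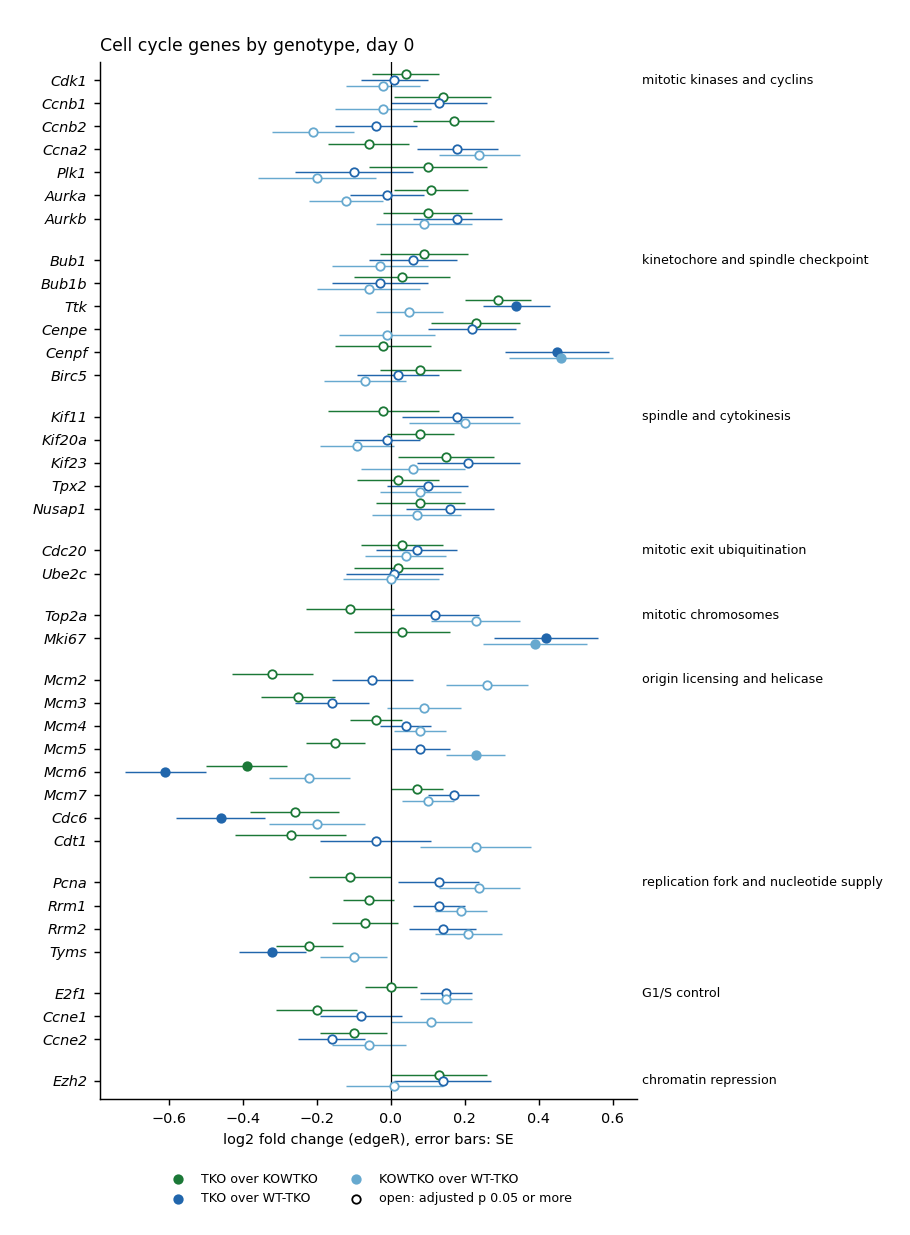
Log2 fold change (x axis, points, with SE as bars) of each of the 38 genes between genotypes at day 0, for TKO over KOWTKO, TKO over WT-TKO and KOWTKO over WT-TKO. Filled points passed an adjusted p of 0.05: Mcm6 is lower in both TKO comparisons, and Cenpf and Mki67 are higher in both comparisons with wild types.

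Pcna, Ezh2 and Cdk1 passed in none of the 6 genotype comparisons as reported, while the proliferation genes Mki67 and Top2a passed in some of them. Pcna had 14.2, 17.2 and 20.3 CPM for DKO, 13.4, 16.2 and 19.6 CPM for KOWT and 14, 19.2 and 20.9 CPM for WT-DKO. At birth it had 32.7, 38.8 and 51.8 CPM for TKO, 33.4, 45.7 and 51.7 CPM for KOWTKO and 28.8, 38 and 45.2 CPM for WT-TKO. These ranges overlapped in every comparison, with log2 fold changes of -0.18 ± 0.09 (KOWT against WT-DKO, adjusted p = 0.302) to 0.24 ± 0.11 (KOWTKO against WT-TKO, adjusted p = 0.122). Ezh2 had 8.64, 11.5 and 12.8 CPM for DKO, 7.25, 10.5 and 13.2 CPM for KOWT and 8.66, 11.1 and 13 CPM for WT-DKO. At birth it had 49.7, 81.9 and 99.6 CPM for TKO, 34.7, 74 and 93.5 CPM for KOWTKO and 63.6, 71.6 and 84.3 CPM for WT-TKO. The wild types lay within the range of the mutants at birth, and the values for Ezh2 ran from -0.06 ± 0.10 (KOWT against WT-DKO) to 0.14 ± 0.13 (TKO against WT-TKO). Cdk1 at birth had 17.7, 20 and 25.4 CPM for TKO, 17.1, 19.6 and 24.4 CPM for KOWTKO and 17.3, 19.9 and 25.8 CPM for WT-TKO, with log2 fold changes of -0.02 ± 0.10 to 0.04 ± 0.09. In older libraries Cdk1 was at -0.51 ± 0.24 in DKO (adjusted p = 0.121) and -0.47 ± 0.24 in KOWT (adjusted p = 0.327), each against WT-DKO. It was at -0.04 ± 0.27 in DKO against KOWT. That these genes did not pass does not show that the groups were alike.

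Differences between the ages were tested as interactions over all 49 libraries. The difference between DKO and wild types at days 13 to 21 minus that between TKO and wild types at birth passed for 8 genes, all negative, which is 21.1% of the set against 10.1% of all genes, or 4.55% for the negative direction alone. Of the 38 genes, 31 had negative values, with a median of -0.28 against 0.01 over all genes. The 8 were Ccnb1, Cenpf, Kif11, Ube2c, Top2a, Mki67, Mcm4 and Rrm2, with Top2a at -1.02 ± 0.23 (adjusted p = 0.00275) and Rrm2 at -0.61 ± 0.16 (adjusted p = 0.00930). Top2a was at -0.87 ± 0.20 in DKO and at 0.12 ± 0.12 in TKO (adjusted p = 0.492), each against its wild types. Cenpf, Ube2c, Top2a and Rrm2 kept their calls in all 6 alternatives. The older and newborn mutants differ in endophilin A3 and line as well as in age, and these cannot be told apart.

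For the littermates against wild types, 9 genes differed between the ages, all in the negative direction, which is 23.7% of the set against 11.4% of all genes, or 5.52% for that direction. Of these, 7 of 15 were G1/S and replication genes: Mcm3, Mcm6, Mcm7, Cdt1, Pcna, Rrm1 and Rrm2. Rrm1, for example, differed by -0.37 ± 0.09 (adjusted p = 0.00489), being -0.17 ± 0.05 in KOWT and 0.19 ± 0.07 in KOWTKO against their wild types, and neither of those values passed alone. Pcna differed by -0.43 (adjusted p = 0.0428), and the mitosis genes Top2a and Mki67 by -0.73 and -0.66. With no filter on low counts 2 were called. The older and newborn littermates differ in Sh3gl3 level and line as well as in age, and these cannot be told apart. Beside these values, 7 of 14 progenitor markers passed with a negative difference, and 11 of the 14 had negative values. Of 16 myelin markers 8 passed with a positive difference, and all 16 had positive values.

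For the mutants against their littermates, 4 genes differed between the ages, which is 10.5% of the set against 8.9% of all genes (4.12% positive and 4.78% negative). Cdt1 (0.86 ± 0.25, adjusted p = 0.0245), E2f1 (0.37 ± 0.12, adjusted p = 0.0437) and Mcm7 (0.34 ± 0.10, adjusted p = 0.0287) had the higher value in the older pair, and Ccnb1 (-1.13 ± 0.33, adjusted p = 0.0229) the lower one. Without the libraries that stood apart no gene of the 38 passed. These 3 interactions share libraries, and their gene lists are not independent of one another. In each of them age cannot be told apart from Sh3gl3 level and line.

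Within groups the genes varied most in older mutants. The coefficient of variation over the mitosis genes had a median of 32.6% for DKO, 28.5% for KOWT and 23.3% for WT-DKO, and of 16.4% for TKO, 20.6% for KOWTKO and 14.7% for WT-TKO. Bub1b, a checkpoint protein of the kinetochore, was widest at 64.3% in DKO and 68.3% in KOWT: its lowest, median and highest CPM were 0.349, 2.77 and 4.08 for DKO, 0.582, 1.26 and 3.29 for KOWT and 1.91, 3.97 and 4.95 for WT-DKO. Its fitted difference in KOWT against WT-DKO, -1.10 ± 0.43, did not pass (adjusted p = 0.163).

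Single libraries tended to be high or low across the set. TKO replicates 2 and 3 were above their group's median for 35 and 34 of 38 genes, and KOWTKO replicates 1, 4 and 6 for 32, 35 and 33. TKO replicate 7 was above it for 2 genes and KOWTKO replicate 2 for 3. TKO replicates 2 and 3 also had the highest progenitor sums of their group, at 2181 and 2115 CPM, against 1476 to 1637 CPM in the other 7. KOWTKO replicates 1, 4 and 6 had 2360.0, 2404 and 2282 CPM, against 1931 to 2162 CPM in the other 5. In the older groups KOWT replicate 6 was above the median for 28 genes and WT-DKO replicate 8 for 32.

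**Figure D5:**
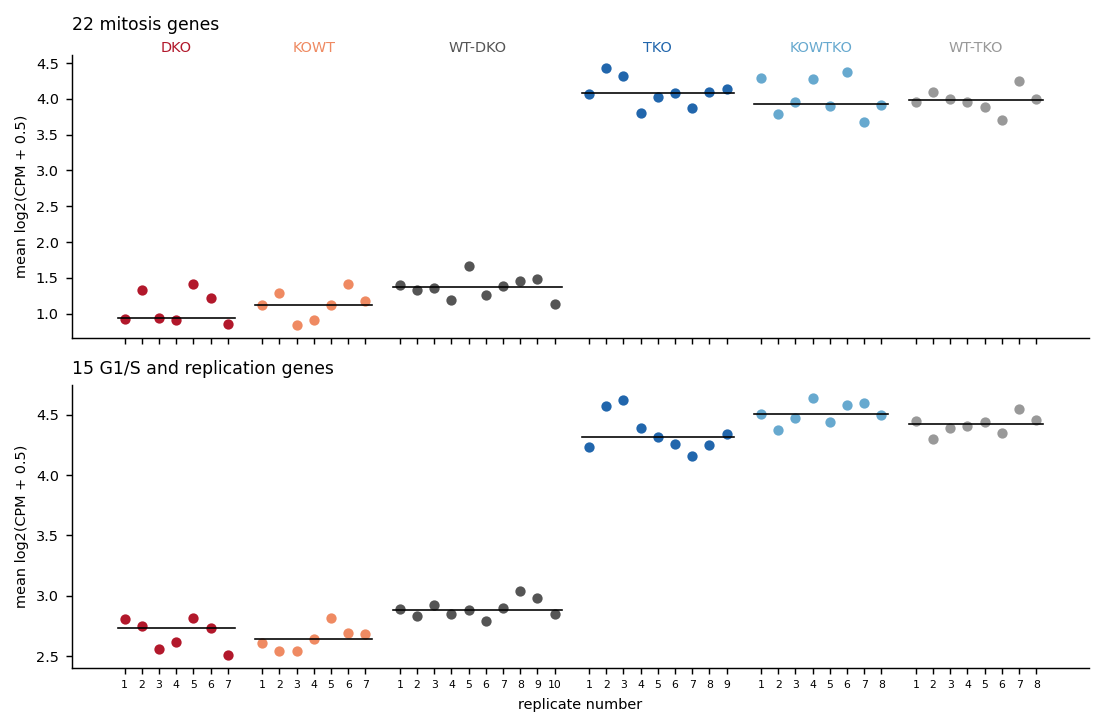
Mean log2(CPM + 0.5) of the 22 mitosis genes (top) and the 15 G1/S and replication genes (bottom) in each of the 49 libraries, with 1 point per library, replicate number on the x axis and lines at group medians. TKO replicates 2 and 3 and KOWTKO replicates 1, 4 and 6 lie high in the mitosis panel, and the older groups lie far below the newborn ones.

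Across older libraries the slope of each gene on the mean log2 level of myelin markers, within groups, was tested as a stand-in for maturity. It passed, with a negative sign, for Ttk (-0.63 ± 0.19, adjusted p = 0.0345) and Cenpe (-0.24 ± 0.08, adjusted p = 0.0451), which is 5.26% of the set against 9.94% of all genes, or 4.21% for negative slopes alone. Without the libraries that stood apart neither passed.

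Other genes of the same pathways were read beside the set. Of 49 further DNA replication genes tested, 45 fell between the ages in wild types (median -1.22), and of 53 further mitosis genes 51 fell and 2 rose (median -2.58). Gins1, a subunit of the replicative helicase, fell by 3.22 on the log2 scale and Ckap2l, a spindle protein, by 3.31. Of 26 G1/S regulators 20 fell and 5 rose, with Foxm1, an activator of mitotic genes, at -2.73. Of 10 inhibitors of cyclin-dependent kinases and p53 arrest genes tested, of 11 listed, 6 rose and 4 fell (median 0.35). The 3 of smallest p, Cdkn1c, Cdkn2c and Cdkn1b, were among those that fell, by 2.55, 1.71 and 1.04. The lower share was 91.8%, 96.2%, 76.9% and 40% in these lists in turn. Over all genes tested 41.5% were lower and 39.5% higher, so only the lower share of the last list was near that of all genes. All 10 genes tested in that list were called (100%, against 81.1% of all genes), and 6 of them were higher.

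In DKO against KOWT, 12 of 48 further replication genes were higher and 3 lower (31.2% called, background 20.8%). Tipin, a fork protection factor, was at 0.54 ± 0.07 (adjusted p = 1.87e-05), Rfc3, a clamp loader subunit, at 0.61 ± 0.10 (adjusted p = 1.63e-04) and Clspn, the checkpoint mediator claspin, at -0.87 ± 0.16 (adjusted p = 3.86e-04). Of 52 further mitosis genes 2 were higher and 2 lower, of 26 G1/S regulators 1 and 3, and of 10 kinase inhibitors and arrest genes 2 were lower, among them Ccng1 at -0.39 ± 0.07.

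In DKO against WT-DKO, 9 of 48 replication genes were higher and 3 lower, and at 25% called the list was near the 26.1% of all genes. Among them were Rpa2, a subunit of the single-strand binding complex, at 0.48 ± 0.07 and Cdc45, a helicase cofactor, at 0.55 ± 0.10. Of 52 mitosis genes 1 was higher and 6 lower, with Nuf2, a kinetochore protein, at -0.88 ± 0.20. Ccnd1, cyclin D1, which drives G1, was lower, at -1.0 ± 0.13 (adjusted p = 6.13e-06) in DKO and -0.59 ± 0.13 (adjusted p = 0.00601) in KOWT, each against WT-DKO. These comparisons share the WT-DKO libraries.

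In TKO against WT-TKO, 6 of 49 replication genes were higher and 4 lower (20.4% called), and 4 of 26 G1/S regulators were higher (15.4%). Both shares were below the 22.9% of all genes. Among the G1/S regulators were Tfdp2, a partner of E2F factors, at 0.46 ± 0.06 (adjusted p = 9.70e-06) and Cdk6, a G1 kinase, at 0.57 ± 0.12 (adjusted p = 0.00200). Ncapd2, a condensin subunit, was at -0.96 ± 0.16 in TKO (adjusted p = 3.59e-04) and at -0.86 ± 0.17 in KOWTKO (adjusted p = 0.00171), each against WT-TKO. Cdkn1a, the kinase inhibitor p21, was higher in TKO at 0.67 ± 0.12 (adjusted p = 4.79e-04). In TKO against KOWTKO, 1 of 49 replication genes (Pold2) was lower (2.04%, against 5.09% of all genes called). Of 26 G1/S regulators 2 were higher and 1 lower (11.5%). Cdc25b was at 0.29 ± 0.06 (adjusted p = 0.00681), Tfdp2 at 0.21 ± 0.06 (adjusted p = 0.0368) and Ccnd1 at -0.29 ± 0.07 (adjusted p = 0.0230).

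Among the 38 genes, the authors' deposited tables list 4 higher and 3 lower at an adjusted p under 0.05 in DKO against KOWT and 2 higher and 11 lower in DKO against WT-DKO, of 37 listed in each. Over all genes listed, 4831 of 15686 were under that threshold in DKO against KOWT and 5500 of 15822 in DKO against WT-DKO. The authors' deposited tables list 1 higher and 1 lower in TKO against KOWTKO and 3 higher and 3 lower in TKO against WT-TKO, of 38. Over all genes listed, 1262 of 15409 were under the threshold in TKO against KOWTKO and 4051 of 15454 in TKO against WT-TKO.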

How the data were processed

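Poly(A) RNA from hippocampus was sequenced as unstranded TruSeq v2 libraries, per the labels' protocols, after extraction with either of a pair of kits that the labels do not tie to samples. The build was mm10 and the tools included STAR 2.3.0e, CASAVA 1.8.2 and DESeq2, all per the submitters' processing notes; for the read counter and the annotation, none is given in the sources used here. The authors deposited raw read counts per gene in all 49 libraries, and comparison tables with log2 fold changes and p-values. Results of those tables were used here only for the counts of members and of all genes they list. The 5 lines that name no gene were left out; reads on no feature came to 8.89 to 17.5 per 100 reads on genes.

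Gene names came from GENCODE M21 (36602 IDs) and the authors' tables (174), leaving 1579 unnamed. Counts were fitted with edgeR 4.0.16 (quasi-likelihood test, TMM, robust) in R 4.3.3, separately for the 24 older and 25 newborn libraries, and over all 49 for the comparisons between ages. Adjusted p is Benjamini-Hochberg over all genes that passed filterByExpr, and the threshold is 0.05. CPM uses TMM over 49 libraries. The fits were tested on simulated data. All 38 members are accounted for; values by library are given for a core of widely used markers and for the 5 called members of smallest p in a comparison, and 3 called genes of smallest p per pathway list. The members and lists were chosen with earlier results of these data known. Alternatives were DESeq2 1.42.0, no filter, only the groups compared, a replicate block, a myelin covariate and leaving out libraries. Replicates within groups differed by more than sampling noise. Genes that overlap others or have pseudogene copies are uncertain.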

Additional observations from a re-analysis of the deposited data

Results flagged for a closer look

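In 8 of 228 sets of 1 gene in 1 group, the highest or lowest library lay far from the rest; chance flags about 1 in 20 groups. The high ones were Ccnb1 in DKO replicate 2 at 0.558 CPM (others 0.172 to 0.338), Bub1 in WT-TKO replicate 7 at 12.9 CPM (7.91 to 10.2) and Mcm7 in WT-TKO replicate 7 at 74.4 CPM (55.6 to 62.7). The low ones were Mcm3 in WT-TKO replicate 2 at 21.8 CPM (26.1 to 29.5), Mcm4 in WT-DKO replicate 7 at 11.8 CPM (13.3 to 14.5), E2f1 in KOWT replicate 3 at 6.82 CPM (8.97 to 10.3), Ezh2 in TKO replicate 4 at 49.7 CPM (77.2 to 99.6) and Ezh2 in KOWTKO replicate 7 at 34.7 CPM (69.8 to 93.5). The 2 libraries low in Ezh2 were also low in mitosis genes: TKO replicate 4 was above its group's median for 0 of 22 and KOWTKO replicate 7 for 3 of 22.

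The difference from controls differed between the ages, by edgeR's interaction test, for 21 gene and comparison pairs, given as log2 values for the older minus the newborn pair. For mutants against littermates they were Ccnb1 at -1.13, Mcm7 at 0.34, Cdt1 at 0.86 and E2f1 at 0.37. For mutants against wild types they were Ccnb1 at -0.98, Cenpf at -0.77, Kif11 at -0.70, Ube2c at -1.19, Top2a at -1.02, Mki67 at -0.70, Mcm4 at -0.29 and Rrm2 at -0.61. For littermates against wild types they were Top2a at -0.73, Mki67 at -0.66, Mcm3 at -0.51, Mcm6 at -0.84, Mcm7 at -0.31, Cdt1 at -0.73, Pcna at -0.43, Rrm1 at -0.37 and Rrm2 at -0.51.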

How the results depend on the processing

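Of 229 alternative counts of called genes, 178 stayed within 1.5 times the reported count, and of 993 alternative values of single called genes 838 stayed called and none changed sign. The counts between the ages within wild types, littermates and mutants, and those of DKO and TKO against wild types, stayed within that range in every alternative run. Leaving out WT-TKO replicate 8 from the fit over all libraries, chosen after seeing the data, gave 37 called genes between the ages in wild types, and 9 and 10 in the interactions of mutants and of littermates against wild types. With no filter on low counts, 2 genes were called in DKO against KOWT (reported 5), 0 in TKO against KOWTKO (reported 1; 6 had an unadjusted p under 0.05 in the reported edgeR fit), 1 in KOWTKO against WT-TKO (reported 3), 1 for the myelin slope (reported 2), and 2, 4 and 2 in the 3 interactions of mutants against littermates, mutants against wild types and littermates against wild types (reported 4, 8 and 9). With only the groups compared in the fit, the counts were 3 in DKO against KOWT, 5 in KOWT against WT-DKO (reported 1), 0 in TKO against KOWTKO and 5 in KOWTKO against WT-TKO. DESeq2 called 3 in KOWT against WT-DKO and 2 in TKO against KOWTKO. With the myelin mean as a covariate, 2 were called in DKO against KOWT and 3 in KOWT against WT-DKO. Without the libraries that stand apart, counts were 1 in DKO against KOWT, 1 in KOWTKO against WT-TKO, 0 for the slope and 0 for the interaction of mutants against littermates. Without the libraries over 100 CPM of transthyretin, an alternative chosen after seeing the data, 2 were called in KOWT against WT-DKO, 2 in TKO against KOWTKO and 7 in KOWTKO against WT-TKO. Without those libraries, the shares of all genes called in these comparisons were 3.56%, 5.35% and 26.8% in turn, against 4.41%, 5.09% and 20.9% in the reported fits. Shares of all genes called under the other settings are not given here, so these shifts are not shown to be particular to the set. The cause of these shifts was not tested. Replicate numbers did not pair libraries (mean correlation of same-numbered libraries 0.028 at days 13 to 21 and -0.009 at birth); with replicate number as a block, 3 were called in DKO against KOWT, 0 in KOWT against WT-DKO, 1 in KOWTKO against WT-TKO and 0 for the slope.

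Leaving out each library in turn gave 3 to 6 called genes in DKO against KOWT, 9 to 15 in DKO against WT-DKO, 1 to 2 in KOWT against WT-DKO, 0 to 4 in TKO against KOWTKO, 5 to 7 in TKO against WT-TKO and 1 to 5 in KOWTKO against WT-TKO. Depth limits Ccnb1 and Ube2c in older libraries, where single libraries held as few as 3 and 1 reads.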
